A study of Mus musculus with 10 samples.

Results

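The urea cycle and the amino acid catabolism of periportal hepatocytes were followed through 10 genes, Nags, Cps1, Otc, Ass1, Asl, Arg1, Gls2, Hal, Sds, and Tat, which were chosen by name and found by their Ensembl identifiers among the 21939 genes of the count table. RNA of hepatocytes from 10 male mice was sequenced, with 1 library per mouse. All mice had received AAV8Cre, an adeno-associated virus that expresses Cre recombinase under the thyroxine-binding globulin promoter, which is active in hepatocytes and not in the other cells of the liver, and hepatocytes were isolated 12 days later. The question was how loss of the transcription factors Nrf2, p65 (a subunit of NF-κB), or both alters gene expression in hepatocytes. The 3 control mice were C57BL/6J mice without a floxed allele. The 2 Nrf2 KO mice carried floxed Nrf2 alleles, the 2 p65 KO mice carried floxed p65 alleles, and the 3 DKO mice carried both. The mice were 8 to 9 weeks old at the start of the experiment.

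Ammonia set free by the breakdown of amino acids is toxic, and the liver turns it into urea. In the mitochondria of periportal hepatocytes, carbamoyl phosphate is made from ammonia and bicarbonate and joined to ornithine, and in the cytosol the resulting citrulline takes up a further nitrogen from aspartate before arginase releases urea and returns ornithine. Enzymes that feed this cycle, such as glutaminase 2 and the ammonia-releasing enzymes of histidine and serine breakdown, are most abundant in the same periportal hepatocytes, whereas ammonia that escapes is captured as glutamine by pericentral hepatocytes. Several of these genes, Tat and Sds above all, are known to be induced in fasting by glucagon and glucocorticoids.

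The total of estimated counts per library was between 33707165 and 49897382. The 10 members had between 1164 and 198005 raw counts in each library, so that counting error was small beside the counts themselves. All 10 passed the filter of at least 10 summed counts that left 13641 genes. Values are given as normalized counts, that is, after division by the effective library size from edgeR's TMM method. A gene passed when edgeR's quasi-likelihood test gave a Benjamini-Hochberg adjusted p of at most 0.05 over all genes tested. The targeted genes did not separate the labelled genotypes by a loss of RNA. Nfe2l2, which encodes Nrf2, had a higher total in the libraries labelled Nrf2 KO (4872 ± 188 normalized counts, SD, n = 2) and DKO (4261 ± 912, SD, n = 3) than in control (2100 ± 189, SD, n = 3), and Rela, which encodes p65, had 1196 ± 18.6 (SD, n = 2) in the libraries labelled p65 KO and 1256 ± 29.9 (SD, n = 3) in control. Counts were available for whole genes only and not for the deleted exons, and genotypes are named as labelled. The authors reported efficient knockout of both genes in hepatocytes by RT-qPCR and Western blot. Of 10 genes known as Nrf2 targets, 6 fell in the libraries labelled Nrf2 KO, 8 in those labelled DKO, and 3 in those labelled p65 KO, where 1 rose. Gstm1, a glutathione S-transferase, had log2 fold changes of -2.96 (standard error, SE, 0.223, adjusted p = 0.000219) in Nrf2 KO, -0.71 (SE 0.200, adjusted p = 0.0379) in p65 KO, and -3.27 (SE 0.192, adjusted p = 2.43e-05) in DKO, and passed in 10, 6, and 10 of the 10 refits with a library left out. The 8 hepatocyte markers summed to between 4027198 and 6469651 normalized counts in every library. The 12 markers of Kupffer cells and macrophages summed to between 428 and 1068 in control, 308 and 916 in Nrf2 KO, 4814 and 6491 in p65 KO, and 1833 and 3195 in DKO, and all 12 passed as higher in p65 KO and 6 in DKO. In such bulk samples fewer cells of a type and less RNA per cell cannot be told apart.

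Sds and Tat were the members that passed with a log2 fold change reaching 1 in a comparison with control, and the 250 bases before their start are shown because short promoter elements shared by genes that rise together are usually searched there. Both sequences were read from GRCm39 on the plus strand, chr5:120614335-120614584 for Sds and chr8:110716813-110717062 for Tat, and end at the base before the annotated start. Capitals mark CCAAT boxes, which bind the general factor NF-Y, on either strand (CCAAT or ATTGG). This motif was added after the sequences had been seen.
Sds: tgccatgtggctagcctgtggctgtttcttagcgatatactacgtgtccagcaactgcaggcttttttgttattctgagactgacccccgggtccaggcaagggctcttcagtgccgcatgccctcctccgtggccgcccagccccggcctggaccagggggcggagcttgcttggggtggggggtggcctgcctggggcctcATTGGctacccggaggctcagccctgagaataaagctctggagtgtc
Tat: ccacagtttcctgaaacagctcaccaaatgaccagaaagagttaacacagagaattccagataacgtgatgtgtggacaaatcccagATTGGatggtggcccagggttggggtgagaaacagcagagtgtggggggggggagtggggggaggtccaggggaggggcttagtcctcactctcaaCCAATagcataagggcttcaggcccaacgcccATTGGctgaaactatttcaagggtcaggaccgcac
The Sds window held 1 CCAAT box, 47 bases before the start, and the Tat window held 3, at 163, 67, and 35 bases. The motif was in the windows of 5 of the 10 members (Cps1, Gls2, Hal, Sds, and Tat) and in 36.2% of the windows of the 13630 protein-coding genes tested. Windows were set by the transcript marked as canonical, and those of Cps1, Nags, Ass1, Asl, and Arg1 overlap the span of the gene, in which other transcripts start. The other motifs searched on both strands were the TATA box (TATAAA, in 7.79% of all windows), the cAMP response element (TGACGTCA, 1.92%), the E-box (CACGTG, 7.57%), the D-box (TTATGTAA, 0.594%), a C/EBP site (TTGCGCAA, 0.198%), the antioxidant response element (TGACNNNGC, 10.6%), and the consensus NF-κB site (0.426%). None of these motifs was in the windows of Sds and Tat, and among the 10 members the only match was a TATA box in the Hal window, 27 bases before its start and on the opposite strand. The GC content was 62.4% in the Sds window and 54.0% in the Tat window, and the median over all windows was 56%.

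The members are spread over the genome and are among the more abundant transcripts of the hepatocyte. Per kilobase of transcript, the scale on which levels of different genes can be compared, Ass1 was the most abundant in control (49148 ± 7345 normalized counts per kb, SD, n = 3), followed by Arg1 (29265 ± 4982), Cps1 (22355 ± 4103), Tat (13479 ± 2882), Otc (7758 ± 683), Gls2 (4568 ± 969), Asl (4308 ± 839), Hal (3337 ± 586), Sds (3016 ± 1469), and Nags (921 ± 31.3). These levels put Ass1 at rank 57 and Nags at rank 1693 of 13637 genes. The means with their SD overlapped for the neighbors Arg1 and Cps1, Gls2 and Asl, Asl and Hal, and Hal and Sds, and not for the other neighbors in this order. The 10 members together took 0.81% to 1.03% of all counts in the control libraries, 1.07% and 1.34% in Nrf2 KO, 1.25% and 1.30% in p65 KO, and 1.33% to 1.73% in DKO. The share was higher in every knockout library than in the 3 control libraries. It was taken of total counts without TMM scaling and was weighted to Cps1 and Ass1, which had the most counts, so it does not describe each member. In p65 KO, 5 of the 10 members had a positive log2 fold change against control, with a median of 0.03.

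In the libraries labelled DKO, 5 of the 10 members rose against control, 3 enzymes of the urea cycle (Cps1, Ass1, and Asl) and 2 of amino acid catabolism (Sds and Tat), and none fell. Tat rose 3.08-fold, Sds 2.55-fold, Asl 2.00-fold, Ass1 1.95-fold, and Cps1 1.65-fold. Of all genes tested, 5.45% passed in this comparison and 2.61% as higher. Sds and Tat passed with a log2 fold change reaching 1, as did 2.38% of all genes in either direction. Among the 3768 genes whose mean reached 1000 normalized counts, as it did for all 10 members, 2.65% passed as higher. The median log2 fold change of the members was 0.67, against 0.02 over all genes and -0.08 over the abundant ones. DKO had the highest mean of the 4 genotypes for 9 of the 10 members, and for 21.3% of all genes. All 3 DKO libraries were above all 3 control libraries for 5 members, against 13.2% of all genes, and above the other 7 libraries for 2 members, Ass1 and Sds, against 2.18% of all genes.

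**Figure D1:**
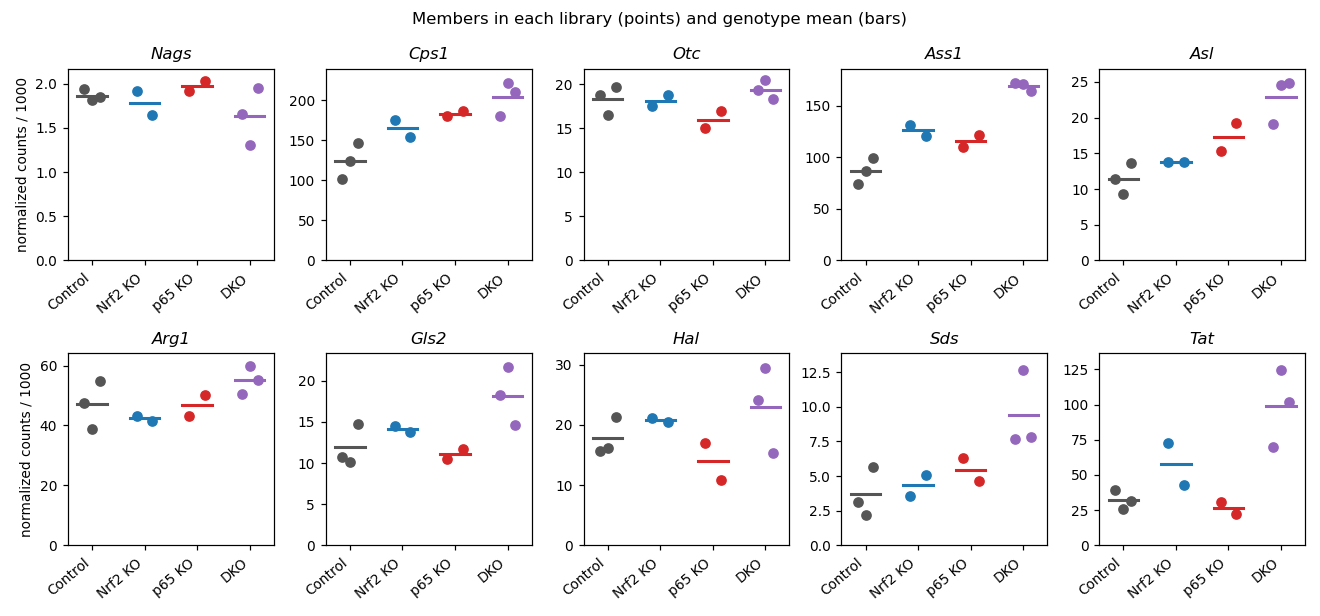
Normalized counts (divided by 1000, axes from 0) of the 10 members in each of the 10 libraries, by labelled genotype. Points are libraries and bars are genotype means. For Ass1 and Sds all 3 DKO libraries lie above the other 7, and for Nags the DKO mean is the lowest.

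The cycle is entered through Nags and Cps1. Nags (GRCm39 chromosome 11, 102036339 to 102040303, plus strand, 7 exons) makes N-acetylglutamate, the activator that Cps1 requires. It had 1937, 1812, and 1853 normalized counts in control replicates 1 to 3, 1921 and 1647 in Nrf2 KO, 1920 and 2033 in p65 KO, and 1660, 1306, and 1948 in DKO. The genotypes overlapped, and the log2 fold change in DKO was -0.19 (SE 0.136, adjusted p = 0.435, 95% interval -0.49 to 0.11). Cps1 (chromosome 1, 67161988 to 67270418, plus strand, 38 exons), which makes carbamoyl phosphate in the mitochondria, had 101112, 124758, and 146681 normalized counts in control, 175782 and 154278 in Nrf2 KO, 180174 and 186050 in p65 KO, and 180257, 222175, and 210441 in DKO. Every knockout library was above every control library. Cps1 rose by a log2 fold change of 0.72 in DKO (SE 0.153, adjusted p = 0.0248) and of 0.56 in p65 KO (SE 0.169, adjusted p = 0.0479), and its 0.41 in Nrf2 KO did not pass (SE 0.169, adjusted p = 0.471).

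Otc (chromosome X, 10118503 to 10187265, plus strand, 10 exons) joins carbamoyl phosphate to ornithine. It varied least among the members (root-mean-square deviation of log2 counts over the 10 libraries 0.128, against 0.813 for Tat, which varied most, and a median of 0.219 over 10185 genes), with 18769, 16536, and 19671 normalized counts in control, 17536 and 18780 in Nrf2 KO, 14995 and 16959 in p65 KO, and 19399, 20489, and 18318 in DKO. The p65 KO mean was the lowest, its libraries overlapped those of control, and no comparison of Otc passed. Its log2 fold change was 0.08 in DKO (SE 0.109, adjusted p = 0.691, 95% interval -0.16 to 0.32).

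The cytosolic pair Ass1 and Asl, which make argininosuccinate and split it into arginine and fumarate, rose together in DKO. Ass1 (chromosome 2, 31352181 to 31410862, plus strand, 16 exons) had 73593, 86596, and 99461 normalized counts in control, 130929 and 120909 in Nrf2 KO, 109445 and 121564 in p65 KO, and 172061, 170423, and 164172 in DKO. The control libraries were the 3 lowest and the DKO libraries the 3 highest of the 10. The log2 fold change was 0.96 in DKO (SE 0.131, adjusted p = 0.0031), 0.54 in Nrf2 KO (SE 0.144, adjusted p = 0.184), and 0.42 in p65 KO (SE 0.145, adjusted p = 0.0754). Asl (chromosome 5, 130040099 to 130058088, minus strand, 16 exons) had 11414, 9246, and 13706 normalized counts in control, 13839 and 13852 in Nrf2 KO, 15332 and 19280 in p65 KO, and 19181, 24627, and 24820 in DKO. Its highest p65 KO library was above the lowest DKO library, whereas all DKO libraries were above those of control and Nrf2 KO. The log2 fold change was 1.00 in DKO (SE 0.163, adjusted p = 0.00791; 0.998 before rounding, just under the limit of 1), 0.60 in p65 KO (SE 0.179, adjusted p = 0.0478), and 0.27 in Nrf2 KO (SE 0.180, adjusted p = 0.733).

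Arg1 (chromosome 10, 24791118 to 24803817, minus strand, 8 exons), the arginase that releases urea, did not pass in any comparison. It had 47572, 38916, and 54951 normalized counts in control, 43081 and 41627 in Nrf2 KO, 43189 and 50176 in p65 KO, and 50496, 59943, and 55257 in DKO. The DKO libraries were above those of Nrf2 KO and p65 KO and overlapped control, with a log2 fold change of 0.23 against control (SE 0.141, adjusted p = 0.362, 95% interval -0.08 to 0.54). Of the 6 enzymes of the cycle, 3 passed in DKO, and the median log2 fold change of the 6 was 0.47.

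Of the 4 enzymes of amino acid catabolism, Gls2 and Hal did not pass and Sds and Tat did. Gls2 (chromosome 10, 128030316 to 128045873, plus strand, 18 exons), the liver glutaminase that supplies ammonia to the cycle, had 10753, 10167, and 14805 normalized counts in control, 14499 and 13734 in Nrf2 KO, 10436 and 11752 in p65 KO, and 18295, 21644, and 14677 in DKO. DKO replicate 3 was below control replicate 3, and the log2 fold change of 0.61 in DKO missed the threshold (SE 0.171, adjusted p = 0.0637). Gls2 overlaps Spryd4, which is on the opposite strand. Hal (chromosome 10, 93324629 to 93355166, plus strand, 20 exons), which removes ammonia from histidine, had 15716, 16197, and 21342 normalized counts in control, 21233 and 20560 in Nrf2 KO, 17045 and 10898 in p65 KO, and 24178, 29432, and 15276 in DKO. The DKO libraries spanned the whole range of control, and the log2 fold change was 0.37 (SE 0.236, adjusted p = 0.378).

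Sds (chromosome 5, 120614585 to 120621997, plus strand, 8 exons) turns serine into pyruvate and ammonia. It had 3141, 2211, and 5669 normalized counts in control, 3580 and 5109 in Nrf2 KO, 6271 and 4645 in p65 KO, and 7652, 12669, and 7824 in DKO. Control replicate 3 had more than the other control libraries and lay within the range of the single knockouts, but all 3 DKO libraries were above the other 7. The log2 fold change in DKO was 1.35 (SE 0.324, adjusted p = 0.0363), and those of Nrf2 KO (0.24, SE 0.354, adjusted p = 0.903) and p65 KO (0.57, SE 0.352, adjusted p = 0.293) did not pass. Sds overlaps Plbd2, which is on the opposite strand. Tat (chromosome 8, 110717063 to 110726435, plus strand, 12 exons), the enzyme that starts tyrosine breakdown, had 39385, 25764, and 31131 normalized counts in control, 72410 and 43003 in Nrf2 KO, 30931 and 22510 in p65 KO, and 69715, 124748, and 101867 in DKO. Its p65 KO libraries lay within or below the range of control, Nrf2 KO above it, and DKO higher still, with DKO replicate 1 below Nrf2 KO replicate 1. Tat rose by 1.62 in DKO on the log2 scale (SE 0.263, adjusted p = 0.00766), and its log2 fold changes of 0.85 in Nrf2 KO (SE 0.283, adjusted p = 0.325) and -0.26 in p65 KO (SE 0.289, adjusted p = 0.569) did not pass.

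**Figure D2:**
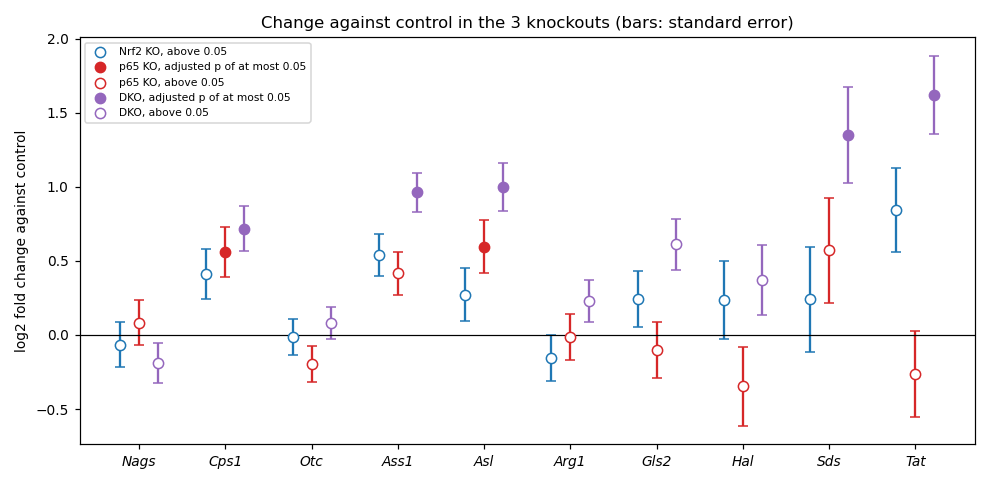
Log2 fold change against control of the 10 members in Nrf2 KO, p65 KO, and DKO, with standard errors as bars. Filled points have an adjusted p of at most 0.05: 5 members in DKO, Cps1 and Asl in p65 KO, and none in Nrf2 KO.

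In the libraries labelled p65 KO, 2 of 10 members passed against control, Cps1 and Asl, both higher, while 14.9% of all genes passed and 8.13% as higher. The median of the members was 0.03. Both adjusted p-values were close to the limit, and neither gene passed when either p65 KO library, control replicate 1 or 2, either Nrf2 KO library, or DKO replicate 2 or 3 was left out, or when only control and p65 KO were fitted. In Nrf2 KO, 0 of 10 passed by edgeR, where 0.726% of all genes passed. An unadjusted p under 0.05 was reached by 3 members (Cps1, Ass1, and Tat) and by 9.38% of all genes. DESeq2 called 1 member, Ass1, and 2.60% of the genes to which it gave an adjusted p, and limma called 0 members. The libraries did not overlap those of control for 4 members in Nrf2 KO and 3 in p65 KO, against 28.5% and 50% of all genes.

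**Figure D3:**
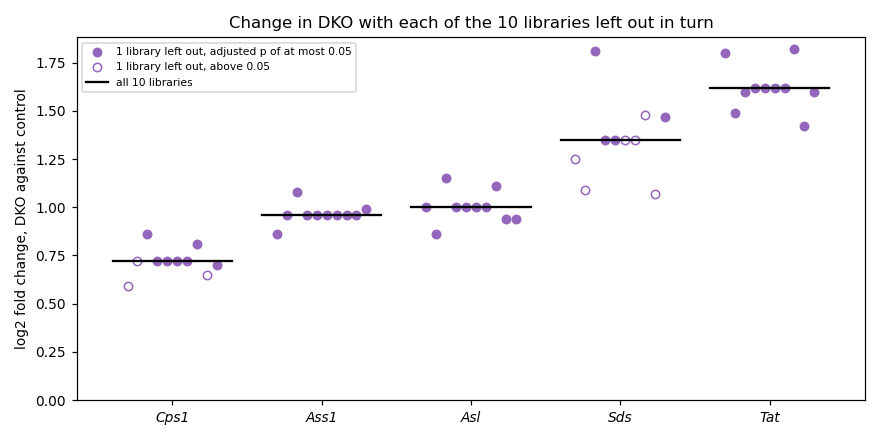
Log2 fold change in DKO against control of the 5 members that passed, with each of the 10 libraries left out in turn (points, filled where the adjusted p is at most 0.05) and with all libraries (black lines). Ass1, Asl, and Tat pass in all 10 refits, Cps1 in 7, and Sds in 4.

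The 5 differences in DKO were examined by leaving out each library in turn. Ass1 (log2 fold change 0.86 to 1.08, highest adjusted p = 0.0158), Asl (0.86 to 1.15, 0.0379), and Tat (highest adjusted p = 0.0368) passed in all 10 refits. Cps1 did not pass without control replicate 1, control replicate 2, or DKO replicate 2 (0.59 to 0.86, highest adjusted p = 0.0837), and Sds did not pass in 6 refits, those without control replicate 1 or 2, either p65 KO library, or DKO replicate 1 or 2 (1.07 to 1.81, highest adjusted p = 0.139). Sds and Cps1 also did not pass when only control and DKO were fitted. Control replicate 3 was the highest control library for 8 of the 10 members and control replicate 2 the lowest for 7, and DKO replicate 2 was the highest DKO library for 7.

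DKO was then compared with each single knockout. Against p65 KO, Tat alone passed, with a log2 fold change of 1.89 (SE 0.308, adjusted p = 0.0117), where 4.11% of all genes passed and 2.05% as higher. It did not pass when either p65 KO library was left out, with log2 fold changes of 2.13 and 1.67. Gls2 (0.71, adjusted p = 0.0661) and Ass1 (0.55, adjusted p = 0.0647) were just above the limit, and DKO libraries did not overlap those of p65 KO for 6 members, against 38.6% of all genes. Against Nrf2 KO, 0 members passed by edgeR, where 0.513% of all genes passed, and 0 by limma. DESeq2 called 2 (Ass1 and Asl) and 4.01% of the genes to which it gave an adjusted p, and an unadjusted p under 0.05 by edgeR was reached by 5 members and 14.4% of all genes. The lowest adjusted p was that of Asl (log2 fold change 0.72, adjusted p = 0.122), followed by Sds (1.11, adjusted p = 0.212) and Ass1 (0.42, adjusted p = 0.226). Between the single knockouts, Tat passed as lower in p65 KO than in Nrf2 KO (log2 fold change -1.11, SE 0.318, adjusted p = 0.0496), where 10.4% of all genes passed and 4.71% as lower. It did not pass in 8 of the 10 refits with a library left out. The interaction, the effect of p65 loss with Nrf2 deleted minus that with Nrf2 present, passed for 0 of 10 members by edgeR, DESeq2, and limma, and for 0.469% of all genes by edgeR. An unadjusted p under 0.05 was reached by 1 member (Tat, 1.04, SE 0.411, adjusted p = 0.308) and by 13.8% of all genes. Its 95% interval was 0.13 to 1.95 for Tat and -0.45 to 0.46 for Ass1. In simulated data, 23% of 2-fold changes were recovered for the interaction and 58% to 87% for the other comparisons. The changed genes were drawn from all genes above a low limit of counts, so these shares do not describe the members. A 2-fold interaction, a log2 of 1, lay inside the 95% interval of Tat and outside that of Ass1. An interaction of this size could therefore be missed in some members and not in others.

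The order of the genotypes differed between members. For Cps1, Asl, and Sds it was DKO, p65 KO, Nrf2 KO, and control from high to low, for Ass1 Nrf2 KO was above p65 KO, and for Gls2, Hal, and Tat p65 KO was below control. Otc was lowest in p65 KO, Arg1 in Nrf2 KO, and Nags in DKO. No neighboring genotypes in these orders differed with an adjusted p under the limit, the lowest being that of p65 KO and control for Ass1 (0.0754). As a description of likeness, the root-mean-square distance between log2 normalized counts centered on their mean over the 10 libraries was smallest between Otc and Arg1 (0.146) and between Cps1 and Ass1 (0.169), and Asl was nearest to Cps1 (0.22). The libraries, their depth, and their normalization are shared by all genes compared. Among the 10184 other genes whose mean reached 50 normalized counts, the 3 most like Sds were Sulf2 (0.221), Aldh1b1 (0.235), and Crcp (0.3), and the 3 most like Tat were Tomm40l (0.404), Prob1 (0.426), and Tmprss2 (0.428).

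Some reactions have another gene in the genome. Arg2, the mitochondrial arginase, had at most 3.37 normalized counts in any library and was not tested. Sdsl, a relative of Sds, had between 193 and 439 normalized counts and a log2 fold change of 0.51 in DKO that did not pass (SE 0.218, adjusted p = 0.195).

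Carriers and enzymes that bring ornithine, aspartate, and other nitrogen donors to the cycle were listed apart. Of 16 genes, 3 rose in DKO (Gpt, Gpt2, and Slc38a3), 2 in p65 KO (Gpt2 and Slc38a3), and 0 in Nrf2 KO, with medians of 0.38, 0.31, and 0.15 and no gene lower. Over all genes, 2.61% passed as higher in DKO and 8.13% in p65 KO, and 0.726% passed in either direction in Nrf2 KO. Gpt2, the mitochondrial alanine aminotransferase, had 9090, 9307, and 12286 normalized counts in control, 12895 and 13598 in Nrf2 KO, 18186 and 20267 in p65 KO, and 15084, 16244, and 19956 in DKO. All p65 KO and DKO libraries were above the rest, with log2 fold changes of 0.91 in p65 KO (SE 0.161, adjusted p = 0.00624) and 0.74 in DKO (SE 0.147, adjusted p = 0.0187), which passed in 10 and in 8 of the 10 refits with a library left out, and Gpt in DKO in 2. The carriers of the cycle itself did not pass in DKO, with 0.33 for the ornithine carrier Slc25a15 (SE 0.121, adjusted p = 0.145) and -0.25 for the aspartate-glutamate carrier Slc25a13 (SE 0.133, adjusted p = 0.300).

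Ammonia capture by pericentral hepatocytes was examined with 5 genes. Of these, 3 rose in p65 KO (Glul, Oat, and Slc1a2) and 0 in DKO and Nrf2 KO, with medians of 1.34, 0.38, and 0.77. Over all genes, 8.13% passed as higher in p65 KO and 2.61% in DKO. Glul, the glutamine synthetase, had 6371, 5258, and 4719 normalized counts in control, 5845 and 8375 in Nrf2 KO, 12849 and 14801 in p65 KO, and 5739, 6094, and 6785 in DKO. Both p65 KO libraries were above all others and DKO was at the level of control. The log2 fold change was 1.34 in p65 KO (SE 0.172, adjusted p = 0.00174) and 0.19 in DKO (SE 0.156, adjusted p = 0.508), and that of DKO against p65 KO was -1.16 (SE 0.171, adjusted p = 0.00892). The interaction of Glul passed (-1.54, SE 0.243, adjusted p = 0.0281). It passed for none of the 10 members, and whether they differ from Glul was not tested. With each library left out in turn, the difference of Glul in p65 KO passed in 10 of 10 refits and its interaction in 4 (-1.78 to -1.26, highest adjusted p = 0.127), being lost without control replicate 2 or 3, Nrf2 KO replicate 2, either p65 KO library, or DKO replicate 1.

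Further lists of amino acid breakdown were tested against control in the same way. The share of all genes passing was 14.9% when p65 KO was compared with control, 5.45% for DKO, and 0.726% for Nrf2 KO. In tryptophan catabolism 1 of 6 rose in DKO, Acmsd, which steers tryptophan away from NAD synthesis, with 550, 352, and 499 normalized counts in control, 752 and 554 in Nrf2 KO, 482 and 699 in p65 KO, and 1548, 1433, and 1898 in DKO. All 3 DKO libraries had more than any other library, and the log2 fold change was 1.80 (SE 0.207, adjusted p = 0.00133). In methionine and cysteine catabolism Gnmt rose and Csad fell in DKO, of 8 genes, and in p65 KO 1 rose (Mat1a) and 2 fell (Cbs and Csad). Csad, which leads cysteine to taurine, had a log2 fold change of -1.64 in DKO (SE 0.177, adjusted p = 0.00105). In serine, threonine, and glycine catabolism 0 of 7 tested genes passed in DKO, and 2 fell in p65 KO, Gldc and Amt of the glycine cleavage system (Amt -0.90, SE 0.126, adjusted p = 0.00221). Of 12 genes of lysine and branched-chain catabolism, Aadat fell in Nrf2 KO (-0.88, SE 0.164, adjusted p = 0.0411) and 0 passed in p65 KO and DKO. None of the 3 further genes of histidine catabolism passed against control. Amdhd1 passed as lower in p65 KO than in Nrf2 KO, in 3 of 10 refits with a library left out. Of 8 other periportal genes 1 rose in DKO, Aldh1b1, and 1 fell in p65 KO, Cdh1, with -1.02 (SE 0.222, adjusted p = 0.0148). When each library was left out in turn, Acmsd and Csad in DKO and Amt in p65 KO passed in 10 of 10 refits, Cdh1 in 8, Aldh1b1 in 6, and Aadat in 4.

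**Figure D4:**
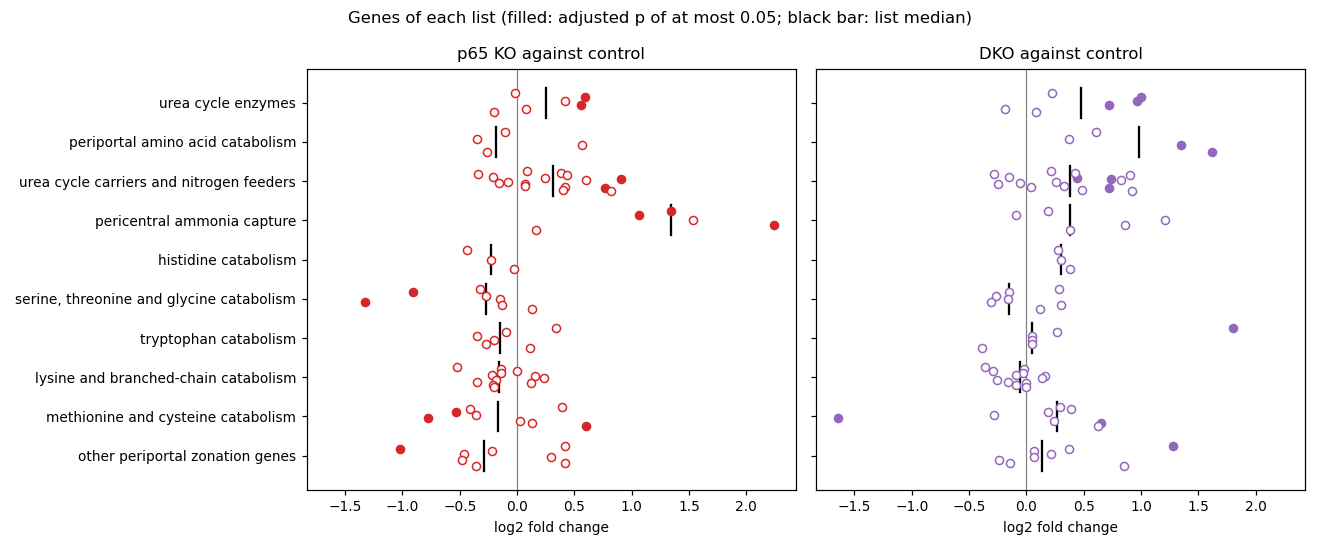
Log2 fold change against control in p65 KO (left) and DKO (right) of the genes in lists of ammonia and amino acid metabolism. Each point is a gene, filled where the adjusted p is at most 0.05, and black bars are list medians. The medians of the member lists in DKO are 0.47 and 0.98, and that of pericentral ammonia capture is 1.34 in p65 KO.

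Genes of the hormonal and daily control of these enzymes were set beside the members. The shares of all genes that passed were 5.45% in DKO (2.61% as higher), 14.9% in p65 KO (8.13% as higher), and 0.726% in Nrf2 KO. Of 10 genes induced by glucagon and glucocorticoids, 4 rose in DKO (Tsc22d3, Per1, Sgk1, and Mt2) and 0 fell, with a median of 0.92. In p65 KO 3 rose and 2 fell, with a median of 0.78, and in Nrf2 KO 1 rose, with a median of 0.17. Sgk1, a kinase induced by glucocorticoids, rose in DKO (2.45, SE 0.276, adjusted p = 0.00133) and in Nrf2 KO (1.90, SE 0.293, adjusted p = 0.0172). It had 231, 131, and 138 normalized counts in control, 803 and 437 in Nrf2 KO, 317 and 324 in p65 KO, and 1136, 784, and 803 in DKO. Among 12 hormone and nuclear factors of amino acid catabolism 2 rose in p65 KO, Hnf4a (0.46, SE 0.112, adjusted p = 0.0222) and Cebpa, and 0 passed in DKO. Of 13 clock genes, 8 rose and 3 fell in p65 KO, and 5 rose and 3 fell in DKO. Per1 was counted both here and among the hormone-induced genes. Some clock genes also differed widely within a genotype, such as Dbp with 87 and 1719 normalized counts in Nrf2 KO and 45.3, 54.1, and 426 in control. By the authors' account, injection and killing of all mice took place in the morning. Per2 rose by 2.99 in p65 KO (SE 0.284, adjusted p = 0.000636) and by 2.18 in DKO (SE 0.264, adjusted p = 0.00171), and its 0.88 in Nrf2 KO did not pass (SE 0.287, adjusted p = 0.309). In the refits with a library left out, Per2 passed in 10 of 10 in both genotypes, Sgk1 in 10 in DKO and 7 in Nrf2 KO, and Hnf4a in 6. The part of the clock genes and of the hormone-induced genes in the members' differences was not tested.

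Markers of other cells were compared with the members in the same way, where 8.13% of all genes passed as higher in p65 KO and 2.61% in DKO. All 6 sinusoidal endothelial markers and 4 of 6 stellate cell markers rose in p65 KO, and 1 of each in DKO. The endothelial markers summed to between 456 and 1019 normalized counts in control, 2266 and 3149 in p65 KO, and 1127 and 1584 in DKO, and the stellate cell markers to between 142 and 335, 1539 and 1562, and 257 and 699. The markers with the lowest p against control in these lists rose in p65 KO. They were Cd5l of Kupffer cells (3.32, SE 0.399, adjusted p = 0.00131), Lyve1 of endothelial cells (2.66, SE 0.420, adjusted p = 0.00391), and Dcn of stellate cells (3.63, SE 0.442, adjusted p = 0.00142). These 3 passed in 10 of 10 refits with a library left out. Cd4 alone of the 4 T and NK cell markers tested rose in DKO (1.96, SE 0.409, adjusted p = 0.0229), and passed in 7 of 10 refits. The T and NK cell markers summed to at most 148 normalized counts, most of them Cd4. In DKO replicate 1, Cd4 had 139 normalized counts, Cd3d 9.47, and Cd3e, Cd8a, Nkg7, and Ncr1 had 0. The markers of B cells and neutrophils summed to at most 18.9, and against control 0 markers passed among hepatocytes, B cells, neutrophils, cholangiocytes, and erythroid cells. The erythroid markers reached 1141 in 1 DKO library and at most 182 in control. The sums of the Kupffer cell, endothelial, and stellate cell markers were highest in p65 KO, while 9 of the 10 members were highest in DKO, and the part of other cells in the members' differences was not tested.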

How the data were processed

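RNA of isolated hepatocytes of 10 mice was measured by poly-A, stranded, single-end sequencing. With Salmon 1.10.3, the authors assigned reads to GENCODE M33 transcripts of GRCm39, and the deposited values are gene-level estimated counts without decimals. The table is named as normalized, but library totals and size factors differ, so the values were used as estimated counts. All columns were assigned by name to the mouse and genotype given in the labels.

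Tests used edgeR 4.0.16 under R 4.3.3 (TMM, quasi-likelihood F-test, genes with at least 10 summed counts) in 1 model of 4 genotypes, and p-values were Benjamini-Hochberg adjusted over 13641 genes in each of 7 comparisons. Standard errors (SE) were taken as the absolute log2 fold change divided by the square root of F. Each library is 1 mouse. Comparisons share libraries. Differences between members within a genotype were not tested. The script was tested on simulated data. Alternatives were DESeq2 1.42.0, limma 3.58.1 on log2(normalized count + 1), other scalings and filters, a replicate block, fits of only the genotypes under comparison, and refits without each library. Positions are GRCm39 positions of GENCODE M39, where 21926 of 21939 identifiers were found. Levels per kb used the transcript marked as canonical.

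The members and lists were chosen with earlier results of these data known, and the lists of targeted genes and Nrf2 targets were added after the other values had been seen. Named are all 10 members, Arg2, Sdsl, Glul, Slc25a15, Slc25a13, and in each list the passing gene with the lowest p against control. Other genes were named after their values were seen. Some results of the rule are not reported here. Protein sequences were not used here.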

Additional observations from a re-analysis of the deposited data

Results flagged for a closer look

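Glul, the glutamine synthetase of pericentral hepatocytes, differed in its response to p65 loss with and without Nrf2. The log2 fold change of DKO against Nrf2 KO minus that of p65 KO against control was -1.54 (SE 0.243, adjusted p = 0.0281 by edgeR). Both p65 KO libraries had more Glul than the other 8 libraries. It passed in 4 of the 10 refits with a library left out, with values of -1.78 to -1.26 and adjusted p-values of up to 0.127. The cause was not tested.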

How the results depend on the processing

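The 5 members higher in DKO were also called with equal library totals, upper-quartile scaling, DESeq2 size factors, a mean of at least 10 counts, and limma. No filter and DESeq2 each called 6, with Gls2 added. With only control and DKO fitted 3 passed (Ass1, Asl, and Tat). Leaving out each library gave 3 to 6. In p65 KO, 3 members passed with equal totals and with DESeq2 (Cps1, Ass1, and Asl), 1 with limma and 0 with only the genotypes compared, and 0 to 2 with a library left out. DESeq2 called 1 member in Nrf2 KO and 2 in DKO against Nrf2 KO, and leaving out a library gave 0 in both. DKO against p65 KO had 2 passing with equal totals (Tat higher, Nags lower), 2 with no filter, 3 with DESeq2, and 0 to 2 with a library left out. Tat in p65 KO against Nrf2 KO passed neither with equal totals, upper-quartile scaling, DESeq2 size factors, a mean of at least 10 counts, nor limma (0 members each), and leaving out a library gave 0 to 1. The cause was not tested. Medians of the members with a library left out were 0.14 to 0.42 in Nrf2 KO, -0.04 to 0.11 in p65 KO, where the sign turned without control replicate 2 (-0.04) or p65 KO replicate 2 (-0.01), and 0.56 to 0.83 in DKO. Equal totals moved the median of abundant genes by 0.177 in p65 KO and -0.092 in DKO.

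Libraries with the same replicate number did not deviate strongly together (correlations of deviations from the genotype means -0.232 to 0.113). With 2 or 3 libraries per genotype, these values cannot show whether the numbers pair the mice. With the replicate number as a block, 1 member passed in p65 KO (Asl, 0.70), 4 in DKO, where Sds (1.43) did not pass, 1 in DKO against p65 KO, and 0 in Nrf2 KO, in DKO against Nrf2 KO, in the interaction, and in p65 KO against Nrf2 KO. The interaction of Glul was -1.49 with the block and did not pass (adjusted p = 0.0854).

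When a library of a single knockout was left out, the lone mouse was assumed to vary like the other genotypes. Fitting the interaction with only some genotypes is not possible.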

Other observations

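Gldc, of the glycine cleavage system, fell in p65 KO with a log2 fold change of -1.33 (SE 0.216, adjusted p = 0.00438 by edgeR), was at -0.31 in DKO (SE 0.184, adjusted p = 0.350), and was higher in DKO than in p65 KO by 1.02 (SE 0.213, adjusted p = 0.0293). Slc1a2, a glutamate transporter of pericentral hepatocytes, rose in p65 KO by 2.24 (SE 0.324, adjusted p = 0.0027) and was lower in DKO than in p65 KO (-1.38, SE 0.319, adjusted p = 0.0396), and its interaction of -2.15 did not pass (SE 0.455, adjusted p = 0.0786). Oat, which breaks down ornithine, rose in p65 KO by 1.06 (SE 0.320, adjusted p = 0.0478). With each library left out in turn, Gldc and Slc1a2 in p65 KO passed in 10 of 10 refits and Oat in 4, and the differences between DKO and p65 KO in 8 for Gldc and 5 for Slc1a2. These 3 genes were named after their values were seen.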
